A study of Homo sapiens with 6 samples.

Results

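The genes described here are the extracellular metalloproteinases of the MMP, ADAM and ADAMTS families and their inhibitors, the TIMPs, in BT549, an established human breast cancer cell line. Members were chosen by symbol alone, as MMP, ADAM, ADAMTS or TIMP followed by a digit, which took in 67 of the 19923 genes of the table (24 MMP, 20 ADAM, 19 ADAMTS and 4 TIMP symbols). One of them, MMP24OS, is a gene on the strand opposite MMP24 and not a metalloproteinase. RNA sequencing covered 3 libraries of control cells and 3 libraries of ENL-treated cells. All 6 share the 1 cell line, and the labels neither spell out ENL nor give a dose, a duration or a vehicle.

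Matrix metalloproteinases are zinc endopeptidases that are made as inactive precursors and cut collagens, other matrix proteins and cell-surface proteins, either after secretion or while held in the membrane. ADAMs are membrane proteins with a metalloproteinase and a disintegrin domain. The catalytic ones release the outer parts of growth factors, receptors and adhesion molecules, and others have lost the zinc-binding site and act in adhesion. ADAMTS proteases are secreted, bind matrix through thrombospondin repeats and process procollagens, proteoglycans and other matrix proteins. TIMPs bind the active site of these enzymes, and breast tumours use the whole system in matrix turnover and invasion.

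Library totals were 76387436 to 80964005 units in control and 74457932 to 85310759 in ENL, where about 4 units may stand for 1 fragment. The filter on low counts was passed by 14086 genes. Genes with RPL or RPS symbols took 7.52% to 7.89% of the units in control and 10.4% to 12.8% in ENL, lowest of the group in ENL library 3. Without that library 8 of 47 tested members were higher and 15 lower, and of 14425 tested genes 3156 were higher and 2877 lower. Levels are in CPM, counts relative to the TMM-scaled library total. The TMM scaling factors were 1.06 to 1.08 in control and 0.903 to 0.974 in ENL. The labels give mammary epithelium as the tissue. Of its markers, EPCAM (0.0431 CPM in control and 0.122 in ENL) and CDH1 (0.205 and 0.175 CPM) were near 0, and KRT18 stood at 26.3 and 24.0 CPM. KRT8 rose from 15.8 to 38.0 CPM and CLDN4 fell from 10.1 to 3.50 CPM. VIM, the mesenchymal intermediate filament gene, stood at 2744 and 5949 CPM. The summed level of the 6 mesenchymal-like markers, most of it VIM, was 3028 to 3756 CPM in control and 6173 to 7068 in ENL. That of the 7 epithelial markers was 47.1 to 60.4 and 60.4 to 73.9 CPM. The 6 leukocyte markers summed to 65.9 to 81.5 and 55.5 to 63.3 CPM. Most of it was CD68 (62.7 and 57.4 CPM, not called), and PTPRC stood at 0.494 and 0.0943 CPM. Control library 2 held most of the PTPRC, which was at 0.286, 1.20 and 0 CPM in control libraries 1, 2 and 3. LYZ was at 0.149, 1.09 and 0 CPM in the same libraries. CD14 fell from 9.68 to 1.71 CPM. The 4 endothelial markers summed to 5.46 to 8.92 and 5.56 to 6.56 CPM, with CDH5 and KDR at 0 in every library. The 4 fibroblast and adipocyte markers summed to 0.926 to 2.92 and 0.518 to 1.68 CPM, with ADIPOQ at 0. Among the control libraries LUM (0.950 CPM) and DCN (1.10 CPM) were highest in library 2, and PDGFRA (1.06 CPM) in library 3. The part of these differences in the results below was not tested.

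Under ENL 13 members fell and 8 rose. Of the 67 members 46 passed the filter on low counts, and those 46 are the ones tested. Of all genes in the table that were tested, 38.4% were called (20.0% higher and 18.4% lower in ENL), and among the tested members 45.7% were called (17.4% higher and 28.3% lower), so the share called was close to that of all genes and the falls outnumbered the rises. The median log2 fold change of the 46 was -0.38, against -0.02 for all tested genes. It was -0.13 (all genes 0.002) among the 20 members with at least 10 CPM in 3 libraries, and -0.59 (all genes -0.23) under library totals. Of the 46, 6 scarce genes (MMP21, MMP23B, ADAM28, ADAMTS3, ADAMTS8 and ADAMTS18) passed the filter through the control group only and 0 through the ENL group only. Their values below 0 follow from the filter and are not support for a direction. They are part of the median of -0.38, which is lower for that reason, and no median without them was taken. ADAMTS3 is also 1 of the 13 members that fell. In each of the 21 called members no ENL library fell inside the range of the control libraries and the groups did not overlap. The same was so in 28 of the 46 members and in 54.0% of all tested genes. Those 28 include MMP21, ADAM28, ADAMTS3, ADAMTS8 and ADAMTS18, which passed the filter through the control group only. The test was edgeR's quasi-likelihood F test with Benjamini-Hochberg adjustment over all 14086 genes, and every adjusted p below comes from it unless another fit is named. No label states that replicates were grown as separate cultures. The p-values therefore measure no more than the spread between these libraries, which may be technical. Scaling by library totals alone moved the median of all genes to -0.23 and gave 1804 higher and 3996 lower genes (31.1% higher, against 52.2% with the TMM scaling used here). With it 7 members were higher and 17 lower. With upper-quartile scaling, at a median of -0.11, 7 members were higher and 15 lower, and of all genes 2356 were higher and 3136 lower. Changes are therefore given relative to the TMM scale. Bulk RNA does not tell fewer cells that express a gene from less RNA per cell.

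Calls are given next by family. Of 12 tested ADAM genes 4 fell and 0 rose by edgeR (0 also at an unadjusted p below 0.05, with DESeq2 and with limma-voom). Of 15 tested ADAMTS genes 7 fell (ADAMTS3 among them) and 3 rose, of 16 tested MMP symbols 2 fell and 4 rose (3 without MMP24OS), and of 3 tested TIMP genes 1 rose. The share called was 33.3% in ADAM, 66.7% in ADAMTS, 37.5% in MMP and 33.3% in TIMP, against 38.4% of all tested genes. Lower calls made up 33.3%, 46.7%, 12.5% and 0%, in the same order, against 18.4% of all tested genes. Higher calls made up 0%, 20.0%, 25.0% and 33.3%, against 20.0% of all tested genes. No test over a family or between families was made. The count of 4 lower ADAM genes became 7 with library totals. The count of 4 higher MMP symbols became 2 without control library 1 and 2 without control library 3.

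**Figure D1:**
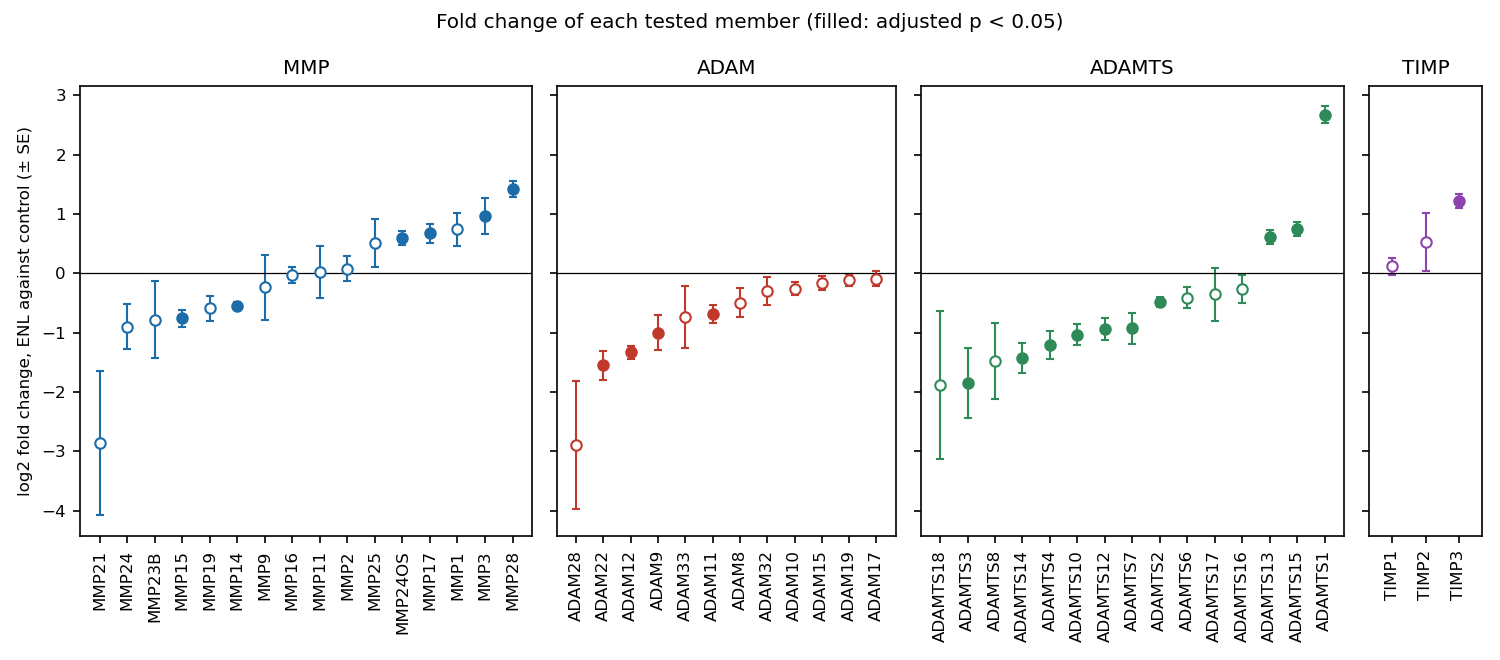
Log2 fold change of ENL against control for the 46 tested members, in 4 panels by family and ordered within each; bars are ± SE (3 libraries per group) and filled points have an adjusted p below 0.05. No filled ADAM point lies above 0, ADAMTS1 lies highest of all at 2.67, and the widest bars belong to genes near the filter on low counts such as MMP21 and ADAM28.

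Levels between genes were compared per kilobase of transcript. TIMP1 was the most abundant member, at 458 ± 34.0 CPM per kb in control (mean ± SD, n = 3) and 498 ± 91.8 in ENL. In control it was followed by ADAM9 (114 ± 2.39 CPM per kb), MMP24OS (105 ± 2.67), ADAM15 (55.8 ± 6.44), TIMP2 (49.0 ± 25.0), MMP14 (48.0 ± 1.18), MMP2 (25.3 ± 7.31) and ADAMTS2 (24.4 ± 1.64). ADAM9 and MMP24OS differed in order between the groups, with 56.9 ± 25.2 and 158 ± 22.6 CPM per kb in ENL. The place of MMP24OS rests on a transcript length of 867 bases, against 5511 exon bases over all its transcripts. ADAM15, TIMP2 and MMP14 in control, and MMP2 and ADAMTS2, were not separated beyond their spread. The 21 members that were not tested, among them 8 listed at 0 in all 6 libraries, had at most 36 units in any library.

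**Figure D2:**
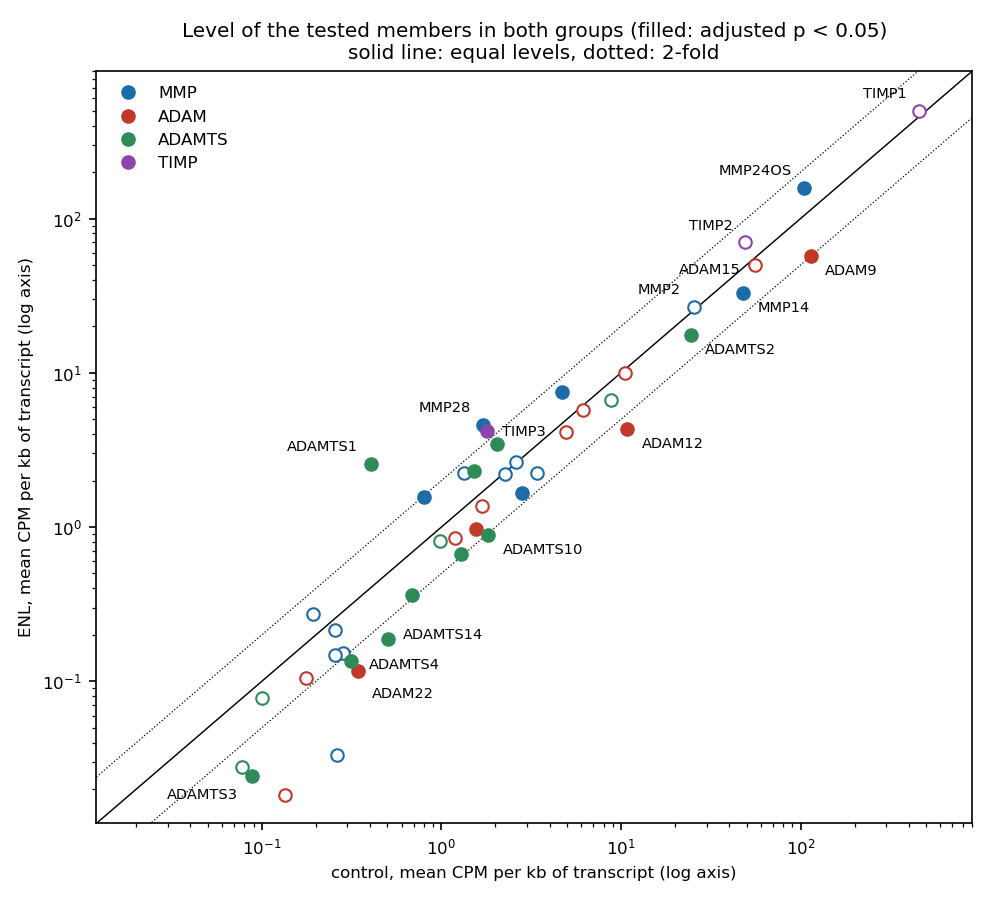
Mean level of each tested member in control (x axis) and ENL (y axis), in CPM per kb of transcript on log axes; the solid line marks equal levels, the dotted lines a 2-fold difference, and filled points an adjusted p below 0.05. The members past 2-fold lie in the lower and middle range of levels, with the exception of ADAM9, which lies on the 2-fold line at 114 CPM per kb in control.

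Among the collagenases and gelatinases, the MMPs that open fibrillar and basement membrane collagen, none passed the test. MMP1, the interstitial collagenase, stood at 1.94, 3.55 and 2.41 CPM in control libraries 1, 2 and 3 and at 3.35, 4.61 and 5.24 CPM in ENL libraries 1, 2 and 3. Control library 2 lay inside the ENL range, and the log2 fold change was 0.74 ± 0.28 (SE, n = 3 per group; adjusted p = 0.0792). Without control library 2 it was 1.01 (adjusted p = 0.0385). MMP2, gelatinase A, stood at 63.3, 112 and 109 CPM in control and 102, 101 and 96.6 CPM in ENL. Control library 1 was low and the other control libraries lay above the ENL libraries. Its log2 fold change was 0.08 ± 0.21 (adjusted p = 0.797), with the opposite sign without control library 1 (-0.14), under library totals (-0.13) and under upper-quartile scaling (-0.01). MMP9, gelatinase B, was scarce in both groups (0.377, 0.987 and 0.435 CPM in control, 0.381, 0.367 and 0.771 in ENL), and the groups overlapped (adjusted p = 0.760).

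The stromelysin gene MMP3, whose enzyme cuts many matrix proteins and activates other MMPs, rose from 1.61 ± 0.538 to 3.16 ± 0.684 CPM (mean ± SD), or 0.97 ± 0.30 on the log2 scale (adjusted p = 0.0413). This call was lost under library totals (adjusted p = 0.0843) and upper-quartile scaling (0.0542). Leaving out a library also ended it for control 1 (adjusted p = 0.123), control 3 (0.122), ENL 1 (0.111) and ENL 3 (0.0870). MMP1 and MMP3 lie in the MMP cluster of chromosome 11, which runs from MMP7 to MMP13 (102520508 to 102955734, GRCh38). The other 7 genes of that cluster, MMP7, MMP20, MMP27, MMP8, MMP10, MMP12 and MMP13, did not reach the filter, with 36 units or fewer in any library.

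The membrane-type MMPs split in direction. MMP14 (chromosome 14, 22836557 to 22849027, plus strand), the transmembrane enzyme that activates the MMP2 precursor together with TIMP2, stood at 175, 180 and 183 CPM in control and 122, 129 and 116 CPM in ENL. The ENL libraries were all lower, by a fitted log2 difference of -0.55 ± 0.07 (adjusted p = 0.00156). MMP15, a second transmembrane type, fell from 11.9 ± 1.04 to 7.06 ± 0.811 CPM (-0.76 ± 0.14, adjusted p = 0.00591). MMP17, which is held in the membrane by a lipid anchor, rose from 11.4 ± 1.48 to 18.1 ± 2.40 CPM (0.67 ± 0.15, adjusted p = 0.0135), a call lost without control library 1 (adjusted p = 0.0528) or control library 3 (0.0527). MMP16, MMP24 and MMP25 did not pass the test, with log2 fold changes of -0.03, -0.90 and 0.52.

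MMP28, or epilysin, a secreted MMP found in skin and other epithelia, had the largest rise of the MMPs. It stood at 3.28, 3.63 and 3.52 CPM in control and 9.24, 10.1 and 8.63 CPM in ENL. No ENL library came near the control range, and the rise was 2.68-fold (log2 1.42 ± 0.14, adjusted p = 0.000443). MMP24OS stood at 89.5, 89.6 and 93.5 CPM in control and 150, 147 and 115 CPM in ENL, a log2 fold change of 0.59 ± 0.11 (adjusted p = 0.00699). ENL library 3 was the lowest of the ENL libraries, but above all control libraries. MMP24OS and MMP24 share 799 exon bases on opposite strands, so reads of the scarce MMP24 (1.25 ± 0.414 CPM in control, 0.672 ± 0.194 in ENL) could not be separated from those of MMP24OS without strand. MMP25, MMP19 and MMP9 share 1454, 814 and 430 exon bases with other genes on the opposite strand, and their values are uncertain for that reason. So are those of MMP1, which shares 150 with WTAPP1, and MMP11, which shares 218 with CHCHD10. CHCHD10 stood at 46.0 CPM in control and 59.9 in ENL, against 5.97 and 6.07 CPM for MMP11. Of the remaining MMPs tested, MMP19 (-0.59 ± 0.21, adjusted p = 0.0610), MMP21, MMP23B and MMP11 did not pass.

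Of the catalytic ADAMs, ADAM12 and ADAM9 fell. ADAM12 (chromosome 10, 126012381 to 126388455, minus strand), a protease that releases EGF-family ligands and cuts IGF-binding proteins, stood at 89.1, 80.9 and 87.9 CPM in control and 31.6, 32.2 and 38.6 CPM in ENL. All ENL libraries were lower than the lowest control library by a wide margin, and the log2 fold change was -1.33 ± 0.11 (adjusted p = 0.000224). ADAM9 (chromosome 8, 38996869 to 39105144, plus strand), a broadly expressed protease of cell-surface proteins, stood at 438, 427 and 446 CPM in control and 160, 165 and 330 CPM in ENL. ENL library 3 was high among the ENL libraries, although still below all control libraries, and the fitted log2 difference was -1.0 ± 0.30 (adjusted p = 0.0406). Without ENL library 3 it was -1.41 (adjusted p = 7.99e-05). The call was lost without a filter on low counts (0.0569) and when any 1 of the other libraries was left out: ENL 1 (adjusted p = 0.0934), ENL 2 (0.105), control 1 (0.0966), control 2 (0.0982) and control 3 (0.105).

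The best known sheddases did not pass the test. ADAM10, which cuts Notch receptors and cadherins, stood at 59.0, 54.2 and 56.6 CPM in control and 49.2, 40.7 and 52.1 CPM in ENL. The ENL libraries were all lower, by a fitted log2 difference of -0.26 ± 0.11 (adjusted p = 0.111), and it was called with library totals (-0.46, adjusted p = 0.0295) and upper-quartile scaling (0.0423). ADAM17, which releases TNF and several EGF-family ligands, stood at 47.4, 40.2 and 52.0 CPM in control and 42.9, 40.7 and 47.7 CPM in ENL, so that the groups overlapped (-0.09 ± 0.12, adjusted p = 0.597). It shares 1323 exon bases with IAH1 on the opposite strand, a gene that rose from 45.2 ± 2.30 to 73.7 ± 5.96 CPM, and its value is uncertain for that reason. ADAM15, an abundant adhesion and protease gene, stood at 142, 175 and 175 CPM in control and 141, 162 and 137 CPM in ENL, with overlapping groups (-0.17 ± 0.11, adjusted p = 0.289, but -0.37 and adjusted p = 0.0271 with library totals).

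ADAM22 and ADAM11, which lack the catalytic zinc site, fell as well. ADAM22, a receptor for LGI proteins in the nervous system, stood at 3.45, 2.53 and 3.59 CPM in control and 1.32, 0.939 and 1.01 CPM in ENL. The groups did not overlap, and the log2 fold change was -1.55 ± 0.25 (adjusted p = 0.00337). ADAM11 fell from 7.14 ± 0.454 to 4.42 ± 0.500 CPM (-0.69 ± 0.15, adjusted p = 0.0108). ADAM28 stood at 0.951 CPM in control and 0.128 in ENL and did not pass (adjusted p = 0.0740). ADAM8, ADAM19, ADAM32 and ADAM33 did not pass either, with log2 fold changes of -0.74 to -0.11.

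**Figure D3:**
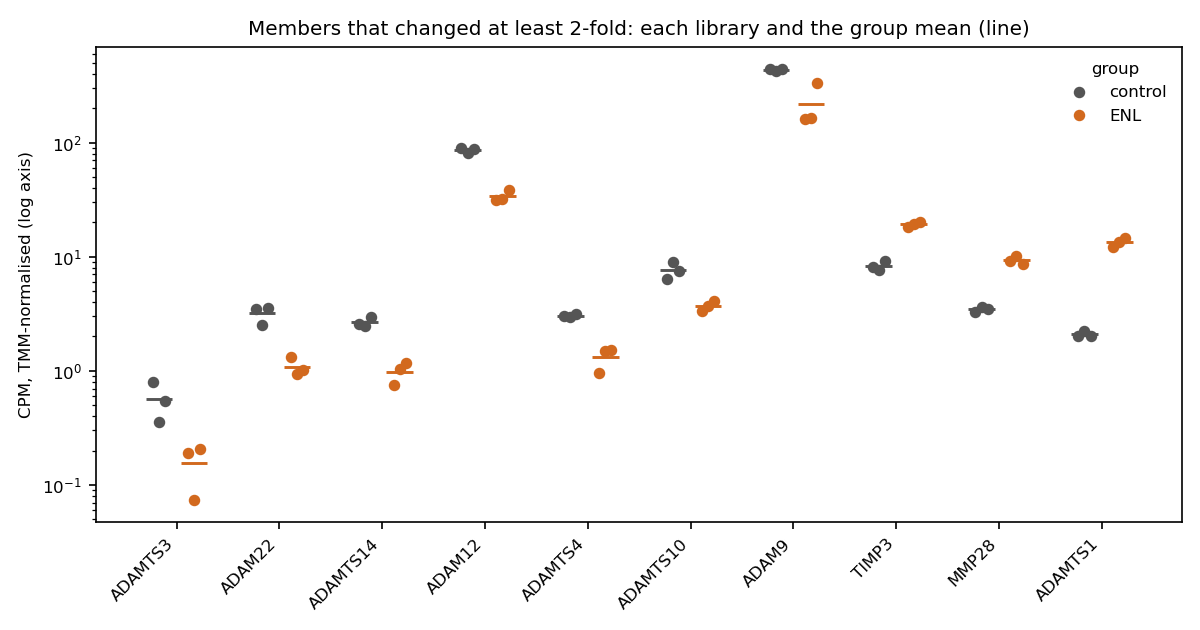
CPM of each library on a log axis (points, control grey and ENL orange) and group mean (lines) for the 10 members called with a change of at least 2-fold, ordered from the largest fall to the largest rise. The groups are separate for each gene, and ADAM9 in ENL has 1 library at 330 CPM above the others at 160 and 165.

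A change of at least 2-fold was called lower in 7 and higher in 3 of the 46 tested members, against 6.02% and 5.91% of all tested genes. Of the 7, 4 were ADAMTS genes. ADAMTS3, 1 of those 4, passed the filter on low counts through the control group only, so its fall is no support for a direction. The procollagen N-proteinases, which remove the amino-terminal propeptide from fibrillar collagens, were all called lower, ADAMTS3 among them. ADAMTS14 stood at 2.57, 2.47 and 2.95 CPM in control and 0.747, 1.03 and 1.18 CPM in ENL, with no overlap (-1.43 ± 0.25, adjusted p = 0.00480). ADAMTS2, the most abundant ADAMTS gene, stood at 156, 161 and 177 CPM in control and 112, 127 and 115 CPM in ENL. The fall was small, but no ENL library reached the control range (-0.48 ± 0.09, adjusted p = 0.00525). ADAMTS3, which also activates the lymphatic growth factor VEGFC, was scarce: 0.800, 0.358 and 0.541 CPM in control and 0.190, 0.0734 and 0.205 CPM in ENL. Its call (-1.84 ± 0.59, adjusted p = 0.0454) was lost in 9 of 13 other settings, among them limma-voom (0.0557), no filter on low counts (0.0674) and without control library 1 (adjusted p = 0.171), 2 (0.0664) or 3 (0.113) or ENL library 1 (0.0869), 2 (0.106) or 3 (0.0675).

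The hyalectanases, ADAMTS enzymes that cut aggrecan, versican and related proteoglycans, moved in both directions. ADAMTS1 (chromosome 21, 26835747 to 26845409, minus strand), an inducible member of this group, had the largest rise of all members. It stood at 2.04, 2.22 and 2.04 CPM in control and 12.1, 13.5 and 14.5 CPM in ENL. The lowest ENL library was far above the highest control library, and the rise was 6.37-fold (log2 2.67 ± 0.14, adjusted p = 4.3e-05). ADAMTS15 stood at 11.4, 11.2 and 12.3 CPM in control and 18.5, 21.4 and 18.8 CPM in ENL. It rose without overlap between the groups (0.75 ± 0.11, adjusted p = 0.00264). ADAMTS4, or aggrecanase 1, stood at 3.04, 2.96 and 3.15 CPM in control and 0.966, 1.48 and 1.52 CPM in ENL, and fell without overlap (-1.21 ± 0.24, adjusted p = 0.00769). Each gene that rose has a family member as its neighbour. ADAMTS5, which lies 72503 bases from ADAMTS1, was not tested, and ADAMTS8, which lies 19981 bases from ADAMTS15, had 0.313 CPM in control and 0.111 in ENL (adjusted p = 0.113).

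Both genes for ADAMTS enzymes that cut cartilage oligomeric matrix protein fell, ADAMTS12 from 11.3 ± 0.850 to 5.90 ± 1.27 CPM (-0.94 ± 0.18, adjusted p = 0.00656) and ADAMTS7 from 3.78 ± 0.683 to 1.98 ± 0.526 CPM (-0.93 ± 0.26, adjusted p = 0.0282). The call of ADAMTS7 was lost without control library 1 (adjusted p = 0.0937), control library 3 (0.0805), ENL library 1 (0.0761) or ENL library 2 (0.0764). ADAMTS10, which acts on fibrillin microfibrils, stood at 6.44, 8.91 and 7.47 CPM in control and 3.34, 3.67 and 4.13 CPM in ENL, with no overlap (-1.03 ± 0.18, adjusted p = 0.00434). ADAMTS13, the protease of von Willebrand factor, rose from 7.48 ± 0.311 to 11.5 ± 0.865 CPM (0.61 ± 0.12, adjusted p = 0.00726). ADAMTS6, the second most abundant gene of the family per kilobase in control, stood at 65.5, 58.8 and 69.5 CPM in control and 40.9, 42.0 and 62.9 CPM in ENL. ENL library 3 lay in the control range. The log2 fold change was -0.41 ± 0.18 (adjusted p = 0.113) and without that library -0.62 (adjusted p = 0.00398).

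Of the inhibitors, TIMP3 alone passed the test with all 6 libraries. TIMP3 (chromosome 22, 32801701 to 32863043, plus strand), which binds to the matrix and inhibits ADAM17 and aggrecanases besides MMPs, stood at 8.06, 7.61 and 9.09 CPM in control and 18.2, 19.2 and 20.2 CPM in ENL. The groups lay far apart, and the rise was 2.32-fold (log2 1.22 ± 0.12, adjusted p = 0.000523). TIMP1, a secreted inhibitor of most MMPs, stood at 459, 519 and 527 CPM in control and 620, 585 and 431 CPM in ENL. ENL library 3 lay below all control libraries and the other ENL libraries above them. The log2 fold change was 0.12 ± 0.15 (adjusted p = 0.545), it was -0.09 with library totals, and without ENL library 3 it was 0.28 (adjusted p = 0.0381). TIMP2, which takes part in MMP2 activation, stood at 230, 73.8 and 233 CPM in control and 162, 297 and 312 CPM in ENL. Control library 2 stood below the other 5 libraries, and the log2 fold change was 0.52 ± 0.49 (adjusted p = 0.444), or 0.15 without it (0.743). TIMP2 shares 367 exon bases with AC022966.1 on the opposite strand, a gene that rose from 62.0 to 115 CPM (0.89 ± 0.09 on the log2 scale) and stood at 61.3 CPM in control library 2. TIMP4 had 8 units or fewer in any library.

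Summed per kilobase, the families gave a compact picture of each library. The ADAM sum was 201, 206 and 215 CPM per kb in control and 116, 124 and 162 in ENL, without overlap, and ADAM9 made up 53.9% to 56.8% of it in control and 34.7% to 52.9% in ENL. The ADAMTS sum was 41.5, 42.0 and 45.8 in control and 32.8, 36.1 and 38.1 in ENL, of which ADAMTS2 made up 55.8% to 57.3% and 44.8% to 52.0%. The sum of MMP genes without MMP24OS overlapped between the groups, at 83.6, 102 and 97.6 in control and 84.8, 90.1 and 80.5 in ENL. The TIMP sum overlapped too, at 484, 496 and 547 in control and 614, 620 and 483 in ENL, and TIMP1 was 81.4% to 95.6% of it. The ratio of the TIMP sum to the MMP sum, which does not depend on how libraries are scaled, was 5.79, 4.86 and 5.61 in control and 7.25, 6.88 and 6.01 in ENL without MMP24OS, so that the ENL libraries were higher. With MMP24OS, which the symbol rule takes in, it was 2.59, 2.42 and 2.66 in control and 2.39, 2.38 and 2.27 in ENL, so that the ENL libraries were lower. At the transcript length used, the direction of the ratio thus turned on that 1 gene, which is no protease and was left out after its values were seen. That length was 867 bases, against 5511 exon bases over all its transcripts. A longer one would make its part of the sum smaller, and the ratio was not taken at another length. Sums over members were given no test, and they describe transcripts, not active enzyme.

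**Figure D4:**
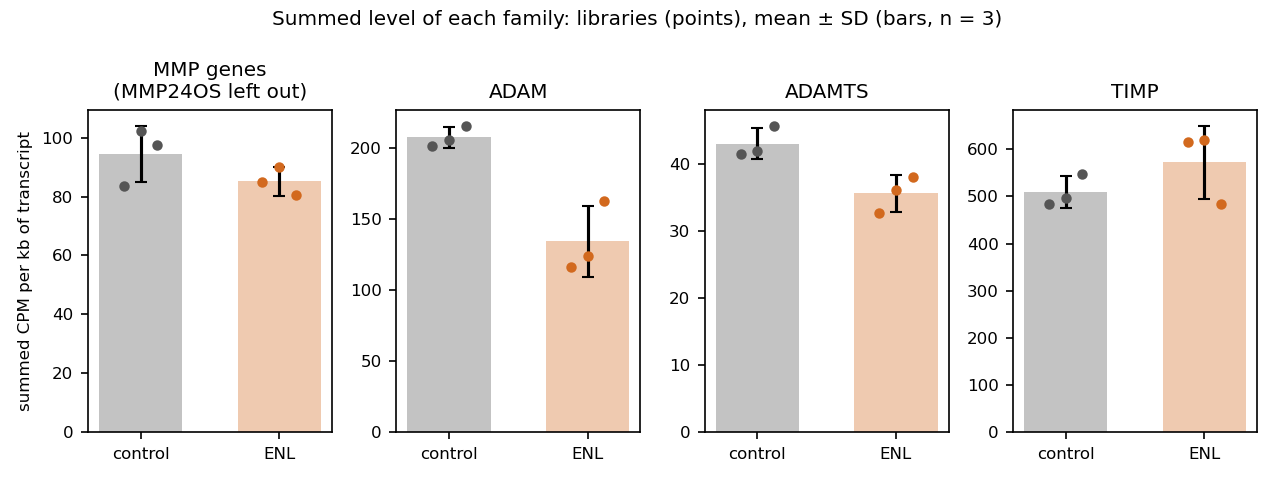
Summed level of each family in CPM per kb of transcript, with each library as a point and the mean ± SD (n = 3 per group) as bars that start at 0; the y axis differs between panels and MMP24OS is left out. The ADAM and ADAMTS libraries of the groups do not overlap, and the MMP and TIMP libraries do.

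The RefSeq promoter table (GRCh38.p14) held a window for 40 of the 67 members, 26 of them tested. MMP1, MMP3, MMP9, MMP17, MMP28, ADAMTS1 and ADAMTS15 had no window, so that 3 of the 8 members that rose were searched. The 250 bases before each start were searched on both strands for 4 motifs. The AP-1 motif TGANTCA was in 1 of the 26 windows (ADAMTS12), against 3.9% of the windows of tested genes. Among members that were not tested it was in those of MMP7, MMP10 and MMP20. The GC box GGGCGG, bound by SP and KLF factors, was in 10 of 10 windows of members that fell, 3 of 3 of members that rose (ADAMTS13, MMP24OS and TIMP3) and 10 of 13 of those not called, against 66.6% of the windows of tested genes. The TATA box TATAAA was in 2 of 26 (5.7% of tested genes) and the ETS motif CCGGAAG in 1 of 26 (15.2%). These matches are letters in a window and not measured sites. Shown are the windows of the member that fell with the smallest adjusted p (ADAM12, chr10:126388478-126388727, minus strand), of a procollagen proteinase (ADAMTS14, chr10:70672256-70672505, plus strand), of the only tested member with the AP-1 motif (ADAMTS12, chr5:33891991-33892240, minus strand), of the most abundant membrane-type MMP (MMP14, chr14:22836335-22836584, plus strand) and of the inhibitor that rose (TIMP3, chr22:32801455-32801704, plus strand). Each is written 5′ to 3′ on the strand of the gene, with the GC box of either strand and the AP-1 motif in capitals.
ADAM12: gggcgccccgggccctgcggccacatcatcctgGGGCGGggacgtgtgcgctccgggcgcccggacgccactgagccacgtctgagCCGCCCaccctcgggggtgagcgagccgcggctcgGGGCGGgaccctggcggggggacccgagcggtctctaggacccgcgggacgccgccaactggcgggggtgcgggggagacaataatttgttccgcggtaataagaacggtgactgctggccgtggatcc
ADAMTS14: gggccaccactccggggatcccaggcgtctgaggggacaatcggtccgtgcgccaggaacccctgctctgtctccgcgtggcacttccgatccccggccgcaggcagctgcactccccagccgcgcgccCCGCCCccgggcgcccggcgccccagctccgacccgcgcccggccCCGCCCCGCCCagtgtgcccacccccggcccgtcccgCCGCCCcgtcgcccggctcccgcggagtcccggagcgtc
ADAMTS12: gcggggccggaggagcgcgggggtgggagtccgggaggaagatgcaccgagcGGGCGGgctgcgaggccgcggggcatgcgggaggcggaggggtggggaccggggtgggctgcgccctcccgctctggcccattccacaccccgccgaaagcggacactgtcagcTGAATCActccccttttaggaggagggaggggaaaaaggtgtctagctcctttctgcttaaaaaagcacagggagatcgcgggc
MMP14: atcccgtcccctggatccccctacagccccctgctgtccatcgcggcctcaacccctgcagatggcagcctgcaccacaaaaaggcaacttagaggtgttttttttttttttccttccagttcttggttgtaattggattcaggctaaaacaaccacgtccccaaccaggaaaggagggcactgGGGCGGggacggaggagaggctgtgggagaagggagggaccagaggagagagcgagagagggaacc
TIMP3: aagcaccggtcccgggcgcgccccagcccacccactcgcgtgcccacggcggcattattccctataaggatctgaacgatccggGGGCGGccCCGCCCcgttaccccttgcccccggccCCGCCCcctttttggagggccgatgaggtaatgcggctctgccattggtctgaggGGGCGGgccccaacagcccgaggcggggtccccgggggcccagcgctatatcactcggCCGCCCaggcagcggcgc
The AP-1 match TGAATCA of ADAMTS12 began 84 bases before the start. TIMP3, which rose, held 5 GC boxes, and ADAMTS14 and ADAM12, which fell, held 4 and 3.

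Genes that activate, guide or feed these proteases were taken from lists chosen with earlier results known. Of 85 such genes 69 were tested, 14 rose (20.3%) and 16 fell (23.2%), close to the shares of all genes. The zymogen activators, which turn precursors into active enzymes, were called lower in 5 of 6 tested cases (83.3%, against 18.4% of all tested genes). None was called higher by edgeR (0 also at an unadjusted p below 0.05, with DESeq2 and with limma-voom). PLAT, the tissue plasminogen activator gene, fell from 45.5 ± 6.27 to 17.2 ± 1.53 CPM (log2 -1.40 ± 0.13, adjusted p = 0.000455), the convertase gene PCSK7 from 52.7 ± 3.62 to 27.5 ± 6.01 CPM (-0.94 ± 0.16, adjusted p = 0.00449) and PLAU, the urokinase gene, from 47.7 ± 1.90 to 37.5 ± 1.38 CPM (-0.35 ± 0.08, adjusted p = 0.0153). The list had 3 lower genes without control library 2 or ENL library 1, and 2 without control library 3, where PLAU was not called (adjusted p = 0.0725). FURIN and PCSK6 were the other activators called. PLAU and PCSK7 share 916 and 446 exon bases with genes on the opposite strand, C10orf55 and TAGLN.

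Among partners that carry ADAM10 and ADAM17 to the cell surface (tetraspanins, iRhoms and FRMD8), 1 of 9 rose (11.1%, against 20.0% of all tested genes). None fell (0 also at an unadjusted p below 0.05, with DESeq2 and with limma-voom), against 18.4% of all tested genes. The gene that rose was RHBDF1, the iRhom1 gene, from 23.6 ± 1.0 to 51.5 ± 5.07 CPM (1.12 ± 0.10, adjusted p = 0.000367). Of 7 regulators of MMPs at the cell surface, CAV1, the main caveolar coat protein, fell from 587 ± 21.9 to 410 ± 16.1 CPM (-0.52 ± 0.07, adjusted p = 0.00208). CD44, a hyaluronan receptor that docks MMPs, rose from 139 ± 12.4 to 186 ± 15.6 CPM (0.42 ± 0.10, adjusted p = 0.0163), a call lost under library totals (0.170) and without control library 1 (0.0546). RECK, a membrane-anchored MMP inhibitor, did not pass. With DESeq2 2 genes of this list were higher and 2 lower. Of 7 tested related metalloproteinases and ADAMTS-like genes, ADAMTSL4, a secreted ADAMTS-like protein without a protease domain, rose from 62.2 ± 2.54 to 121 ± 6.96 CPM (0.96 ± 0.08, adjusted p = 0.000257). It shares 736 exon bases with an antisense gene. BMP1, the procollagen C-proteinase, fell from 58.3 ± 1.5 to 40.9 ± 3.33 CPM (-0.51 ± 0.09, adjusted p = 0.00523). MME, the neprilysin gene, fell by 0.40 ± 0.10 on the log2 scale (adjusted p = 0.0206), which was not called when control 1 (0.0752), control 3 (0.0709), ENL 1 (0.0667) or ENL 2 (0.0604) was left out, and the list then had 1 lower gene.

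Transcription factors that bind AP-1 and ETS elements rose in 3 and fell in 3 of 12 cases. Each was 25.0%, against 20.0% higher and 18.4% lower among all tested genes. JUNB rose from 227 ± 14.8 to 645 ± 80.2 CPM (1.51 ± 0.11, adjusted p = 0.000177), JUND from 206 ± 10.7 to 778 ± 153 CPM (1.91 ± 0.15, adjusted p = 0.000226) and ETS2 from 216 ± 4.74 to 321 ± 11.4 CPM (0.57 ± 0.07, adjusted p = 0.00104). JUNB shares 259 exon bases with HOOK2 on the opposite strand. ETS1, FOSB and ETV4 fell, of which 1 was called without control library 1 and 1 without control library 3.

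Of 15 tested membrane proteins that ADAMs shed, 5 rose (33.3%, against 20.0% of all tested genes) and 0 fell (against 18.4%). In either direction 33.3% were called, against 38.4% of all tested genes. Of the 15, 1 (IL6R) was lower at an unadjusted p below 0.05, 1 was lower with DESeq2 and 0 with limma-voom. TNFRSF1B, the second TNF receptor gene, rose from 4.75 ± 1.16 to 12.7 ± 0.748 CPM (1.42 ± 0.20, adjusted p = 0.00190), MICB, a ligand of the NKG2D receptor, from 5.88 ± 1.41 to 10.9 ± 1.30 CPM (0.90 ± 0.20, adjusted p = 0.0129) and NOTCH1 from 21.5 ± 0.742 to 28.3 ± 1.0 CPM (0.40 ± 0.09, adjusted p = 0.0128). MICA and CDH2 were the others. Under library totals, or with control library 1 left out, the list had 2 higher genes, and NOTCH1 was not among them (adjusted p = 0.154 and 0.0511). Of 13 tested matrix substrates 5 fell (38.5%, against 18.4% of all tested genes) and 3 rose (23.1%, against 20.0%). With library totals 1 rose. COL5A1, a fibrillar collagen gene, fell from 203 ± 9.21 to 107 ± 8.64 CPM (-0.93 ± 0.09, adjusted p = 0.000387) and THBS1, the thrombospondin 1 gene, from 46.1 ± 3.03 to 22.4 ± 2.32 CPM (-1.04 ± 0.11, adjusted p = 0.000683), while COL4A2, a basement membrane collagen gene, rose from 141 ± 6.82 to 204 ± 4.91 CPM (0.53 ± 0.07, adjusted p = 0.00170). THBS1 shares 448 exon bases with FSIP1 on the opposite strand. CD44, CDH2 and FN1 stand both in these lists and among the mesenchymal-like markers.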

How the data were processed

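The deposited file is 1 table of estimated counts per gene and library, with gene symbols. Per the submitters' processing notes FastQC, STAR, StringTie and DESeq2 were used with hg38. What each did, the annotation and whether strand was used: not given in the sources used here. Although the deposited estimated counts are whole numbers, 70.8% to 73.1% of the low values in each library lay at a multiple of 4 or 1 above it. Values spread evenly would also often lie there, and the rest of the low values did not. The step was therefore not settled. If 1 fragment counted as about 4 units, low genes carry more counting error than their size shows. No value needed rounding.

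Low genes were removed by filterByExpr at a minimum count of 10. TMM-scaled counts entered edgeR 4.0.16 (quasi-likelihood F test, two-sided, group alone, R 4.3.3) with Benjamini-Hochberg adjustment over all tested genes and a threshold of 0.05. A standard error is the absolute log2 fold change divided by the square root of F. In 3 simulations of this comparison with 13904 to 13919 genes, 200 genes per run were given a change. Of changes of 2-fold 53.7% were recovered, as were 82.0% at 4-fold, and unchanged genes made up 10.9% of the calls. These values hold for that number of changed genes. They also hold for counts drawn unit by unit, without a step of about 4 units, so low genes of the data may differ. In the data 38.4% of tested genes were called, and a share of that size was not tested. GENCODE 29 (GRCh38) held 19811 of the 19923 symbols. A gene's length is that of its longest coding transcript (or longest of any kind), whichever transcript the cells express.

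Members were taken by symbol, and the symbol rule and the gene lists were set with earlier results of these data known. Values in every library are given for members past the threshold with a change of at least 2-fold, for the 3 members of each family with the highest level per kilobase, and always for MMP1, MMP2, MMP9, MMP14, ADAM10, ADAM17, ADAMTS1 and TIMP1 to TIMP3. Every member past the threshold is named, and from each gene list up to 3 genes with the smallest adjusted p. Alternatives were scaling by upper quartiles, library totals or DESeq2's size factors, the DESeq2 1.42.0 Wald test, limma-voom (limma 3.58.1), other filters on low counts, counts divided by 4, a block for the replicate number, leaving out each library, and sums with genes of the same strand that share at least 100 exon bases. Leaving MMP24OS out was chosen after seeing the data.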

Additional observations from a re-analysis of the deposited data

How the results depend on the processing

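Of the 21 called members 16 kept their call in every alternative that gave a value, and none of the 21 changed direction. ADAM9, ADAMTS3, ADAMTS7, MMP3 and MMP17 lost theirs in some, with the values given beside them. Scaling by library totals gave 1804 genes higher and 3996 lower, 7 ADAM genes lower and 8 genes of the pathway lists higher. Requiring 10 CPM in 3 libraries tested 20 members and left 5 higher and 6 lower. Of the 9551 genes tested under that filter 2233 were higher and 2077 lower. Among the members it left 2 MMP symbols higher, 2 ADAM genes lower and 2 ADAMTS genes lower. Limma-voom called 4 MMP symbols lower. With each library left out in turn, 2 to 5 MMP symbols were higher, 1 to 2 TIMP genes were higher (TIMP1 joined TIMP3 without ENL library 3) and 10 to 15 genes of the pathway lists were lower, against 16. Signs differed from the main value for MMP2 (-0.13 with library totals, -0.0073 with upper-quartile scaling, -0.14 to 0.21 with a library left out), TIMP1 (-0.093 with library totals), MMP9 (-0.67 to 0.32 with a library left out) and ADAM17 (-0.18 to 0.0004 with a library left out), none of them called. The cause of these shifts was not tested. The stricter filter also left fewer genes to be called. Leaving out MMP24OS gave 7 members higher and 13 lower.

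The deviations of same-numbered libraries from their group means correlated at 0.030, 0.046 and 0.080 across genes. Libraries with different numbers correlated at -0.075 to 0.032. ENL library 1 correlated best with control library 2 (0.032), and ENL libraries 2 and 3 with the control library of the same number. Deviations from means of 3 libraries cannot settle whether the replicate numbers pair the libraries, and no conclusion is drawn. With the replicate number as a block 2631 genes were higher and 2310 lower, and 7 members were higher and 11 lower. MMP3 (adjusted p = 0.0951), ADAMTS3 (0.0596) and ADAMTS7 (0.0505) were not called with the block. Members under about 1 CPM rest on few fragments.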
